A study of Arabidopsis thaliana with 15 samples.

Results

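Transcripts of the mitochondrial and the plastid genome were counted in roots of Arabidopsis thaliana under oxidative stress. The members are every gene of the deposited count table whose identifier begins with ATMG (mitochondrion) or ATCG (plastid). They number 35 of the 14532 genes listed, 23 mitochondrial and 12 plastid. Each is given by its identifier, because the count table holds no gene names and the reference annotation used here did not pair these identifiers with symbols. A reference note names only 3 of the 35, ATMG00180 and ATMG00900 as cytochrome c biogenesis genes and ATMG01090 as a gene of the mitochondrial ATP synthase.

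The roots came from wild-type seedlings of ecotype Columbia-0 that were 7 d old, with 30 to 50 seedlings pooled in each biological replicate. The 5 groups of 3 replicates (a, b and c) were 5 mM hydrogen peroxide (H2O2) with 10 µM RB for 2 h, 5 mM H2O2 alone for 1 h, 2 h or 3 h, and water. The titles abbreviate the second compound as RB and the treatment field as MRB, and Rose Bengal, a photosensitizer dye, is named in the title of the series. The water samples carry a 0 in their titles and 1 h in their treatment field. In every comparison with water other than that of 1 h, treatment and time in solution therefore cannot be told apart, and RB without H2O2 was not analysed here.

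Plant mitochondria and plastids keep small genomes of their own. The mitochondrial genome encodes ribosomal RNAs and subunits of the respiratory chain, of the ATP synthase and of the cytochrome c maturation machinery, and the plastid genome encodes ribosomal RNAs and subunits of the photosystems, of Rubisco and of a plastid RNA polymerase. Most proteins of both organelles are encoded in the nucleus and imported. In plant organelles a poly(A) tail marks an RNA for degradation instead of stabilising it, so libraries made from the 3′ ends of poly(A) RNA, as these were (MARS-seq), capture only some of the organelle RNA. The values below are therefore levels of captured RNA and not the amount of each transcript in the organelle, and in bulk roots fewer cells of a type and less RNA per cell cannot be told apart.

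The total count per library ran over a wide range, 689372 to 6231140. Levels are given as counts per 1000000 of that total (CPM) or as a percentage of it, and a fold change is the log2 value, first group over second, from a negative binomial model fitted by edgeR to the 9986 genes that passed a filter on low counts. Adjusted p-values are Benjamini-Hochberg values over those 9986 genes from edgeR's two-sided quasi-likelihood test, and a gene is called changed at an adjusted p under 0.05. Of the members, 14 mitochondrial and 9 plastid ids passed the filter, while 9 mitochondrial and 3 plastid ids had too few counts and were not tested. As a check of the tissue, 27 nuclear genes of photosynthesis, markers of green tissue, summed to 1064 to 2001 CPM in the 15 libraries. The listed root genes (8 of 9 written, with IRT1 not listed, among them the root hair gene EXPA7 and the nitrate transporter gene NRT2.1) summed to 486 to 990 CPM in the treated libraries and to 1336 to 1436 CPM in water, and RNA of both kinds was thus present.

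Mitochondrial ids made up between 0.970% and 4.83% of a library, and nearly all of these counts belonged to a pair of them. ATMG00020 alone held 76.5% to 87.9% of the mitochondrial counts of a library and ATMG01390 held 10.3% to 22.7%. Together they held 97.5% to 99.3%. ATMG00660 came next with a mean of 88.4 CPM over the 15 libraries, followed by ATMG00690 (38.7 CPM), ATMG01380 (21.3 CPM), ATMG00670 (20.3 CPM), ATMG00030 (10.8 CPM), ATMG00040 (7.78 CPM), ATMG00516 (6.79 CPM) and ATMG00160 (6.03 CPM). The remaining 13 mitochondrial ids averaged 0.565 to 5.78 CPM. These are counts of 3′ tags with no division by length, and they order the members by captured tags, not by molecules.

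The summed mitochondrial share was 1.57%, 1.45% and 0.970% in replicates a, b and c of H2O2 with RB. With H2O2 alone it was 3.70%, 1.56% and 4.83% at 1 h, 1.46%, 3.42% and 2.44% at 2 h, and 1.53%, 2.34% and 1.87% at 3 h, and it was 2.21%, 1.38% and 4.13% in water. Every treated group overlapped water. The group means were 1.33% ± 0.319 with RB, 3.36% ± 1.66, 2.44% ± 0.978 and 1.91% ± 0.407 at 1 h, 2 h and 3 h of H2O2, and 2.57% ± 1.41 in water (SD, n = 3 each). The difference of each treated mean from the water mean, of which that of RB was the widest at -1.24 percentage points, was smaller than the SD of the water libraries.

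The spread of the mitochondrial share followed library depth. ATMG00020 made up 3.998% of the shallowest library (H2O2 1 h, c) and 0.809% of the deepest (H2O2 with RB, c). Over the 15 libraries its log2 share and the log2 total count had a Pearson correlation of -0.85 (permutation p = 7e-05, adjusted p = 0.00042 over the 6 relations computed) and a Spearman rho of -0.83 (permutation p = 0.00033, adjusted p = 0.0012). Without the 2 libraries farthest from the median depth r was -0.75. Within groups, after each group's mean was taken off, r was -0.93, and in 5 of 5 groups the deepest library had the lowest share. The share fell by 0.61 on the log2 scale for each doubling of depth.

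Other members shared this relation in part. ATMG01390 had r = -0.69 (Spearman -0.69, permutation p = 0.0052 and 0.0051, adjusted p = 0.0078 and 0.0103), with r = -0.50 without the 2 libraries farthest from the median depth. The sum of the other 21 mitochondrial ids had r = -0.70, and the summed plastid ids had r = 0.16. Nuclear-encoded ribosomal RNA, of which 3 ids are listed, had r = -0.22. Within groups, after each group's mean was taken off, r was -0.89 for ATMG01390, -0.80 for the other mitochondrial ids, 0.56 for the plastid sum and -0.72 for nuclear ribosomal RNA. Over all 9986 genes tested the median r was 0.11, and over the 100 nuclear genes with the highest mean level it was -0.16. ATMG00020 stood at rank 3 of 9986 counted from the most negative r, ATMG00040 at rank 15 and ATMG00030 at rank 52. The plastid sum hides unlike members. ATCG00280 had r = -0.70 (rank 75), ATCG01130 -0.68 (rank 100), ATCG00470 -0.58 (rank 344) and ATCG00300 -0.15. The values of ATCG00650, ATCG00740, ATCG00790, ATCG00800 and ATCG00820 ran between 0.13 and 0.39, the highest being that of ATCG00740. The total count includes the mitochondrial counts, at most 4.83% of it. The part of depth in the fold changes below was not tested, but values with log2 depth as a term are given where that term changes a call, and for ATMG01390 and ATMG00020 with RB. Shares of all genes called are from the fit without that term.

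**Figure D1:**
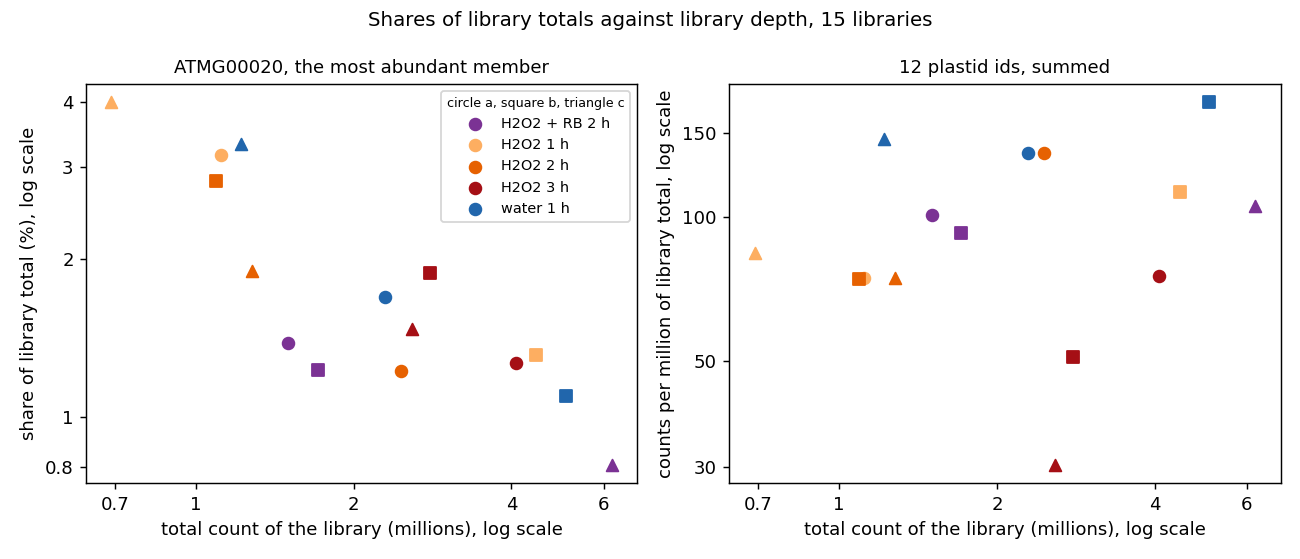
Share of ATMG00020 (left, percent of the library total) and summed share of the 12 plastid ids (right, CPM) against the total count of each of 15 libraries, all axes logarithmic, with colour for the group and shape for the replicate letter. ATMG00020 falls with depth, between 3.998% and 0.809%, while the plastid sum has r = 0.16 with depth and lies between 30.2 and 75.2 CPM at 3 h of H2O2 and between 136 and 174 CPM in water.

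Against water, ATMG00670 was the one member called in all 4 treated groups, and it was higher in each. It had 33.3, 22.9 and 25.7 CPM in replicates a, b and c of H2O2 with RB. With H2O2 alone it had 34.9, 11.9 and 29.0 CPM at 1 h, 15.5, 22.9 and 32.1 CPM at 2 h, and 9.80, 25.1 and 24.8 CPM at 3 h. In water it had 6.11, 4.73 and 6.56 CPM, so each of the 12 treated libraries lay above all 3 water libraries. The counts behind these values were 20 to 160 in a treated library and 14, 24 and 8 in water.

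The log2 fold change of ATMG00670 over water was 2.41 ± 0.52 with RB (SE, edgeR adjusted p = 0.00209), 2.24 ± 0.54 at 1 h (adjusted p = 0.0116), 2.24 ± 0.53 at 2 h (adjusted p = 0.0077) and 2.14 ± 0.52 at 3 h (adjusted p = 0.00432). These are 5.32-fold, 4.72-fold, 4.72-fold and 4.42-fold higher levels, all set against the same 3 water libraries. The treated groups did not separate from one another. The log2 fold change was 0.17 with RB over H2O2 at 2 h (95% interval -0.81 to 1.16) and -0.10 at 3 h over 1 h (95% interval -1.10 to 0.91). The call at 1 h was lost without H2O2 1 h a (adjusted p = 0.0829) or water b (adjusted p = 0.0732), and the call at 2 h without H2O2 2 h c (adjusted p = 0.0519) or water b (adjusted p = 0.0552).

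A further pair of mitochondrial members changed with RB against water. ATMG01020 had 7.33, 6.45 and 4.65 CPM with RB, against 1.31, 0.788 and 3.28 CPM in water, and the groups did not overlap, although the counts were low (11, 11 and 29, against 3, 4 and 4). Its log2 fold change was 2.15 ± 0.69 (edgeR adjusted p = 0.0305). With H2O2 alone it was 0.60 ± 0.81 at 1 h (adjusted p = 0.748), 1.83 ± 0.73 at 2 h (adjusted p = 0.109) and 1.82 ± 0.69 at 3 h (adjusted p = 0.053). At 3 h it passed in 8 of 22 alternatives, among them without H2O2 3 h a (adjusted p = 0.0164) or water c (adjusted p = 0.0224). The fold change of RB over H2O2 at 2 h was 0.31 (95% interval -0.99 to 1.62). The call with RB was lost without RB a, RB b, water a or water b (adjusted p = 0.0694, 0.0755, 0.106 and 0.195).

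ATMG01390, the second most abundant member, fell with RB. It had 1626, 2030 and 1368 CPM in the RB libraries, against 5025, 2701 and 7748 CPM in water, and the groups did not overlap. The log2 fold change was -1.54 ± 0.49 (edgeR adjusted p = 0.0287). H2O2 alone at 2 h had 2225, 5653 and 5059 CPM, again above every RB library. RB over H2O2 at 2 h gave -1.45 ± 0.49, with an adjusted p of 0.165 that did not pass, and it passed without H2O2 2 h a (-1.82, adjusted p = 0.0374). ATMG00020 in the same comparisons was -0.76 ± 0.46 over water (adjusted p = 0.277) and -0.87 ± 0.46 over H2O2 at 2 h (adjusted p = 0.479).

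The call of ATMG01390 over water did not hold under every alternative, while its sign did. It was lost without RB a (log2 fold change -1.54, edgeR adjusted p = 0.0784), without RB c (-1.46, adjusted p = 0.0941), without water c (-1.04, adjusted p = 0.16) and when no gene was filtered out (-1.55, adjusted p = 0.0701). The RB group held the deepest library, and the share of ATMG01390 falls with depth. With log2 depth as a term its fold change over water was -1.28 (adjusted p = 0.000637), and over H2O2 at 2 h it was -0.77 (adjusted p = 0.167). The same term gave ATMG00020 -0.54 over water (adjusted p = 0.0678) and -0.27 over H2O2 at 2 h (adjusted p = 0.673).

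The count of ATMG01390 relative to that of ATMG00020 takes library totals out of the comparison. This measure was chosen after its values were seen and is given with no test. It was 11.8%, 16.5% and 16.9% with RB, 16.3%, 17.5% and 19.9% at 1 h of H2O2, 18.2%, 20.0% and 26.6% at 2 h, 19.3%, 23.0% and 25.3% at 3 h, and 29.7%, 24.7% and 23.3% in water. The RB libraries lay below all water, 2 h and 3 h libraries and overlapped those of 1 h. The 1 h libraries also lay below those of water, while the 2 h and 3 h libraries overlapped them. A ratio shows unequal change of the members and not which of them changed.

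**Figure D2:**
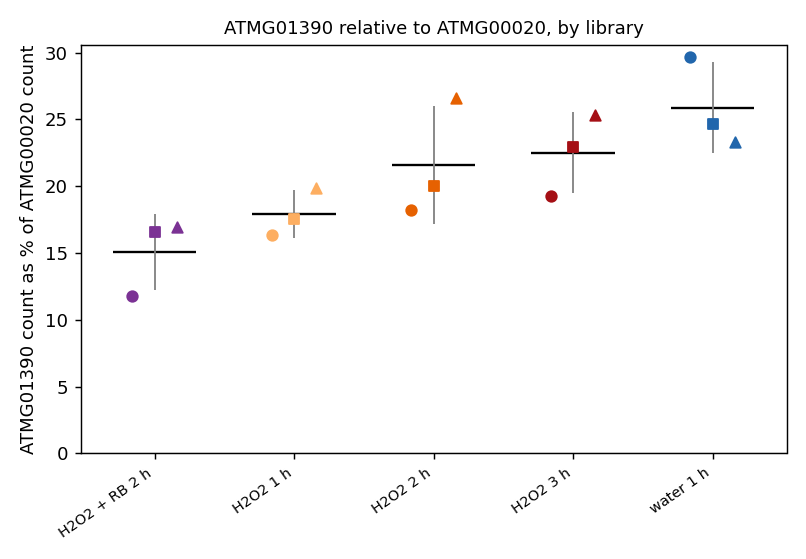
Count of ATMG01390 as a percentage of the count of ATMG00020 in each library (shapes: circle a, square b, triangle c), with the group mean (bar) and SD (line). The H2O2 with RB libraries sit between 11.8% and 16.9% and overlap those of H2O2 1 h, at 16.3% to 19.9%, and the water libraries sit above both, between 23.3% and 29.7%.

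Counted over the 14 mitochondrial ids tested, the comparison of RB with water called 2 higher and 1 lower, against 11.6% of all genes tested called higher and 9.62% lower. The median log2 fold change of the 14 was 0.28, and that of all genes -0.01. At 1 h of H2O2 1 was called higher and 0 lower, against 6.55% and 3.04% of all genes, with a median of 0.47 (all genes 0.01). At 2 h 1 was called higher and 0 lower, against 9.21% and 4.73%, with a median of 0.20 (all genes -0.03). At 3 h 1 was called higher and 0 lower, against 16.2% and 14.4%, with a median of 0.48 (all genes -0.07). ATMG00670 was among the ids called higher in each of these 4 comparisons. At 3 h, when 30.5% of all genes were called in one direction or the other, 13 of the 14 mitochondrial ids did not pass.

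The direct comparisons between treated groups called no mitochondrial id by edgeR. For RB over H2O2 at 2 h, where 2.43% of all genes were called (0.741% higher and 1.69% lower), 0 of 14 passed, 1 had an unadjusted p under 0.05 (ATMG01390), and DESeq2 called 0. For 3 h over 1 h of H2O2, where 13.8% of all genes were called, 0 of 14 passed, 0 had an unadjusted p under 0.05, and DESeq2 called 1. With log2 depth as a term ATMG00160 and ATMG00690 were called higher at 3 h over 1 h. The same term added ATMG00160 (1.15, adjusted p = 0.0263), ATMG00690 (1.06, adjusted p = 0.0106) and ATMG01020 (1.91, adjusted p = 0.0114) to the calls at 3 h over water. It added ATMG01380 (1.26, adjusted p = 0.0164) to those of RB over water. The share of all genes called with that term is not given here, so these gains have no background beside them.

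ATMG00660, the third member by mean level, was called in no comparison. It had 88.6, 64.5 and 93.7 CPM with RB, 108, 47.5 and 170 CPM at 1 h, 48.0, 108 and 103 CPM at 2 h, 59.6, 94.2 and 63.6 CPM at 3 h, and 67.6, 48.9 and 161 CPM in water. All groups overlapped, and its log2 fold changes in the 6 comparisons ran between -0.43 and 0.34. ATMG01380 had 42.7, 29.3 and 24.4 CPM with RB, against 10.9, 12.02 and 23.0 CPM in water, groups that did not overlap, with a log2 fold change of 1.24 ± 0.49 (edgeR adjusted p = 0.0833). It passed without water c (adjusted p = 0.0346) or H2O2 1 h c (adjusted p = 0.0325). ATMG00690 had 29.7, 65.5 and 56.6 CPM at 3 h, against 29.7, 22.3 and 50.8 CPM in water, overlapping groups, with 0.89 ± 0.41 (adjusted p = 0.109), and passed without H2O2 3 h a (adjusted p = 0.021) or water c (adjusted p = 0.0253).

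Among the 9 mitochondrial ids that were not tested, ATMG00900, a cytochrome c biogenesis gene by the reference note, stood out by its counts. It had 9, 11 and 0 counts in the 3 h libraries and 0 or 1 in each of the other 12. This id was singled out after its values were seen. ATMG01120, also not tested, had 8, 7 and 17 counts with RB and 1, 0 and 2 in water. The authors' deposited table, whose log2 fold changes run the other way (water over treated), calls ATMG01120 in that comparison at -3.23 with an adjusted p of 0.0347.

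Plastid ids were far rarer. They summed to between 30.2 and 174 CPM, or 58 to 883 counts in a library. ATCG00740 was the most abundant, with 31.6% to 63.3% of the plastid counts of a library and a mean of 46.1 CPM over the 15 libraries. It was followed by ATCG00650 (11.2 CPM), ATCG00800 (10.4 CPM), ATCG00820 (8.49 CPM), ATCG00470 (5.13 CPM), ATCG00790 (4.15 CPM), ATCG00300 (2.84 CPM), ATCG00280 (2.44 CPM), ATCG01130 (2.43 CPM) and ATCG00220 (1.83 CPM). The remaining pair averaged 1.72 and 0.998 CPM.

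The mean summed plastid share of each treated group was below that of water, and the lowest mean was that of 3 h of H2O2. It was 101, 92.6 and 105 CPM with RB, 74.4, 113 and 84.1 CPM at 1 h of H2O2, 136, 74.1 and 74.4 CPM at 2 h, 75.2, 50.8 and 30.2 CPM at 3 h, and 136, 174 and 145 CPM in water. All RB, 1 h and 3 h libraries lay below every water library, and replicate a of 2 h, at 135.95 CPM, lay just above the lowest water library at 135.72 CPM. The means were 99.6 ± 6.48 CPM with RB, 90.5 ± 20.0, 94.8 ± 35.6 and 52.1 ± 22.5 CPM at 1 h, 2 h and 3 h, and 151.6 ± 20.0 CPM in water (SD, n = 3 each). The 3 h mean was 34.4% of the water mean. Counting error alone gave the lowest library (3 h, c) a 95% exact binomial interval of 23.9 to 37.7 CPM and the highest (water b) one of 163 to 186 CPM.

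At 3 h of H2O2 3 of the 9 plastid ids tested were called lower and 0 higher, against 14.4% of all genes called lower and 16.2% higher. All 9 had a negative log2 fold change under each of 4 scalings, with a median of -1.07 (all genes -0.07). Over all genes 5319 of 9986 were negative. ATCG00740, the most abundant plastid id, had 37.3, 20.4 and 13.6 CPM at 3 h, against 75.1, 88.1 and 64.8 CPM in water, and the groups did not overlap. Its log2 fold change was -1.44 ± 0.34 (edgeR adjusted p = 0.0038), and it was called under each of the 23 alternatives.

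ATCG00470 had the largest fold change of the 9. It had 0.735, 1.07 and 0 CPM at 3 h, against 5.24, 5.52 and 17.2 CPM in water, and every 3 h library lay below every water library. The counts were 3, 3 and 0, against 12, 28 and 21, and a count of 0 in replicate c allowed up to 1.16 CPM. The log2 fold change was -3.49 ± 0.96 (edgeR adjusted p = 0.00958), a level 11.3-fold higher in water. It was called in all 22 alternatives that could test it.

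ATCG00800 was the third call at 3 h and the least stable. It had 9.56, 2.86 and 0.775 CPM, against 14.8, 26.4 and 8.201 CPM in water, and 1 library of 3 h lay above the lowest water library. The log2 fold change was -1.66 ± 0.61 (edgeR adjusted p = 0.047), and the call held in 13 of 23 alternatives. It was lost without a filter on low counts (adjusted p = 0.0749), with libraries thinned to equal depth, where the log2 fold change was -0.72 (adjusted p = 0.548), without H2O2 3 h b or c (adjusted p = 0.138 and 0.163), and without water a or b (adjusted p = 0.0684 and 0.221). Leaving out H2O2 2 h b or any 1 of the RB libraries, which are no part of this contrast, moved its adjusted p to between 0.0512 and 0.0552.

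**Figure D3:**
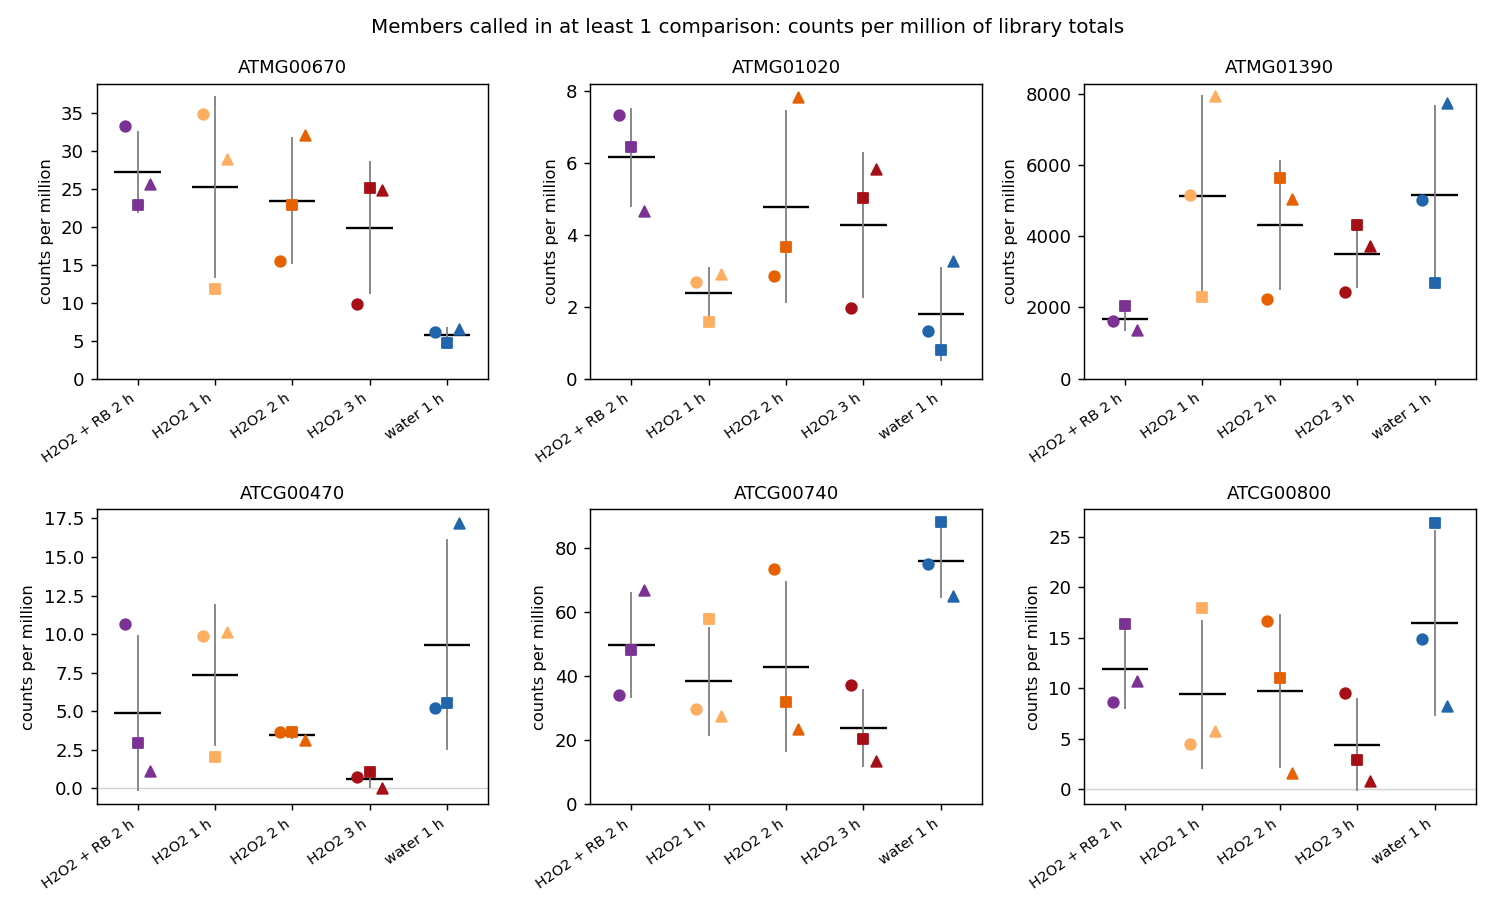
CPM of the 6 members called in at least 1 comparison, by library (circle a, square b, triangle c), with group means (bars) and SD (lines), and a scale of its own for each member. ATMG00670 is higher in the 12 treated libraries than in water, ATMG01390 is lowest with RB, and the 3 plastid ids have their lowest group means at 3 h of H2O2.

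The earlier times and RB gave no plastid call. At 1 h 0 of 9 passed, where 9.59% of all genes were called, 1 had an unadjusted p under 0.05, and DESeq2 called 0. At 2 h 0 of 9 passed (13.9% of all genes called), 0 had an unadjusted p under 0.05, and DESeq2 called 0. With RB against water 0 of 9 passed (21.2% of all genes called), 0 had an unadjusted p under 0.05, and DESeq2 called 0. All 9 log2 fold changes were nevertheless negative at 1 h and with RB, under each of 4 scalings, with medians of -0.46 and -0.47, and 7 of 9 were negative at 2 h with a median of -0.31 (8 of 9 under the other 3 scalings). In all genes 4940, 5065 and 5140 of 9986 were negative at 1 h, with RB and at 2 h. These comparisons share the water libraries with that of 3 h.

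ATCG00740 at 1 h had 29.6, 57.8 and 27.6 CPM, below each of its water values, with a log2 fold change of -0.84 ± 0.35 that did not pass (edgeR adjusted p = 0.151). At 2 h it had 73.3, 32.0 and 23.5 CPM (-0.65 ± 0.34, adjusted p = 0.235, and -1.25 with adjusted p = 0.0287 without H2O2 2 h a), and with RB 33.99, 48.1 and 66.8 CPM (-0.47 ± 0.33, adjusted p = 0.363). Both groups overlapped water. ATCG00470 had 10.7, 2.93 and 1.12 CPM with RB, 9.86, 2.02 and 10.2 CPM at 1 h and 3.66, 3.66 and 3.13 CPM at 2 h. At 2 h with log2 depth as a term its log2 fold change over water was -1.67 and passed (adjusted p = 0.0425), against -1.16 (adjusted p = 0.411) without the term.

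Between 3 h and 1 h of H2O2 1 of 9 plastid ids was called lower and 0 higher, against 6.94% and 6.91% of all genes. It was ATCG00470, with a log2 fold change of -3.13 ± 1.03 (edgeR adjusted p = 0.0494), and its 3 h values lay below its 1 h values. This call held in 9 of 22 alternatives. It was lost without H2O2 1 h a or c, without any 1 library of 2 h or 3 h, and without RB b or water a, with adjusted p-values of 0.0503 to 0.192, and log2 depth as a term gave -1.97 (adjusted p = 0.0678). ATCG00740 was -0.61 ± 0.35 (adjusted p = 0.277) in the same comparison, and was called with log2 depth as a term (-0.87, adjusted p = 0.0381). RB over H2O2 at 2 h gave 0 plastid calls of 9, 0 with an unadjusted p under 0.05, and 0 by DESeq2. For ATCG00740 the log2 fold change of RB over H2O2 was 0.18, with a 95% interval of -0.54 to 0.90.

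**Figure D4:**
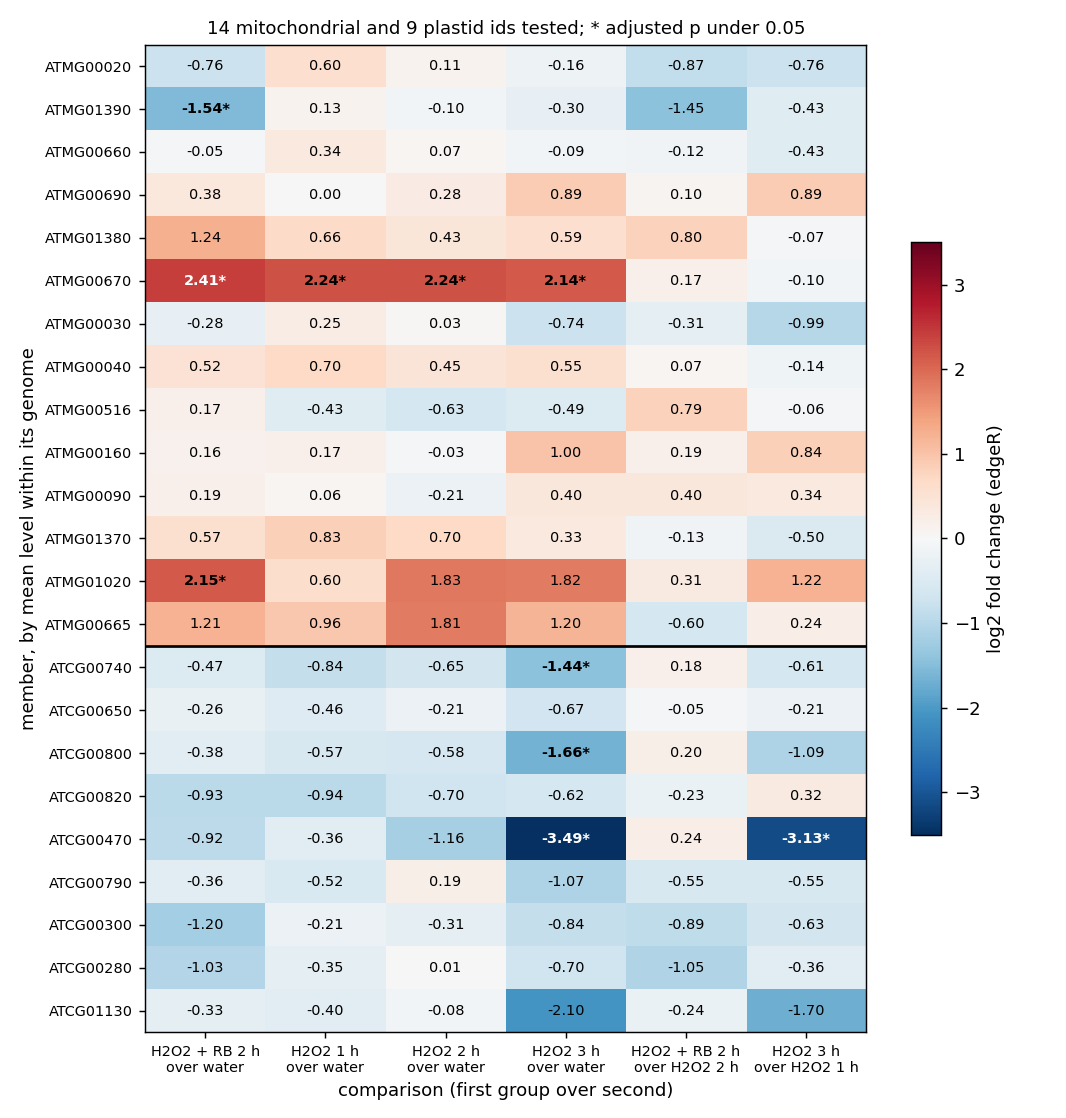
Log2 fold change (edgeR, first group over second) of the 14 mitochondrial ids (above the line) and 9 plastid ids (below it) tested, ordered by mean level within each genome, in 6 comparisons; a star marks an adjusted p under 0.05. ATMG00670 is the one id called in all 4 comparisons with water, and the plastid ids are negative in every comparison with water but for 2 values at 2 h, of 0.19 and 0.01.

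Against water, the nuclear genes of photosynthesis did not follow the plastid ids. Their sum was 1064, 1161 and 1726 CPM with RB, 2001, 1951 and 1921 CPM at 1 h of H2O2, 1564, 1884 and 1814 CPM at 2 h, 1329, 1594 and 1731 CPM at 3 h, and 1270, 1082 and 1458 CPM in water. All 1 h and 2 h libraries lay above every water library, where the plastid sum lay lower or overlapped. Within H2O2 alone, both sums, as shares of raw totals, had lower means at 3 h than at 1 h. The 3 h mean of the nuclear genes was 79.2% of their 1 h mean, and the groups did not overlap. For the plastid ids it was 57.6%, and the groups overlapped. The TMM factors of these libraries were 0.784 to 1.07 at 3 h and 0.924 to 1.14 at 1 h. Scaling by them can change which groups overlap. In the comparison of 3 h with 1 h, 0 of the 23 nuclear genes tested were called by edgeR, against 13.8% of all genes. On the TMM scale their median log2 fold change was 0.02, with 12 positive and 11 negative. For the plastid ids tested the median was -0.61, with 8 of 9 negative. Of the 23 genes tested, 5 rose with RB, 3 at 1 h, 4 at 2 h and 6 at 3 h, against 11.6%, 6.55%, 9.21% and 16.2% of all genes tested, with median log2 fold changes of 0.50, 0.67, 0.58 and 0.61. By edgeR and by DESeq2 0 of them fell in these comparisons, and with log2 depth as a term 7 rose at 1 h and 1 fell at 3 h. Log2 fold changes were negative for 6 of the 23 with RB, 3 at 1 h, 5 at 2 h and 4 at 3 h. The lowest were -0.47, -1.72, -1.11 and -1.13, in the same order. The 2 genes that follow are from those that rose at 3 h. LHCA4, a light-harvesting protein gene of photosystem I, had 112 ± 19.9 CPM at 3 h and 58.1 ± 7.86 CPM in water (SD, n = 3 each, log2 1.24 ± 0.25, edgeR adjusted p = 0.00112). PSBP1, a gene of the oxygen-evolving complex, had 79.7 ± 23.1 CPM at 3 h and 34.7 ± 5.19 CPM in water (log2 1.51 ± 0.31, adjusted p = 0.00108).

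**Figure D5:**
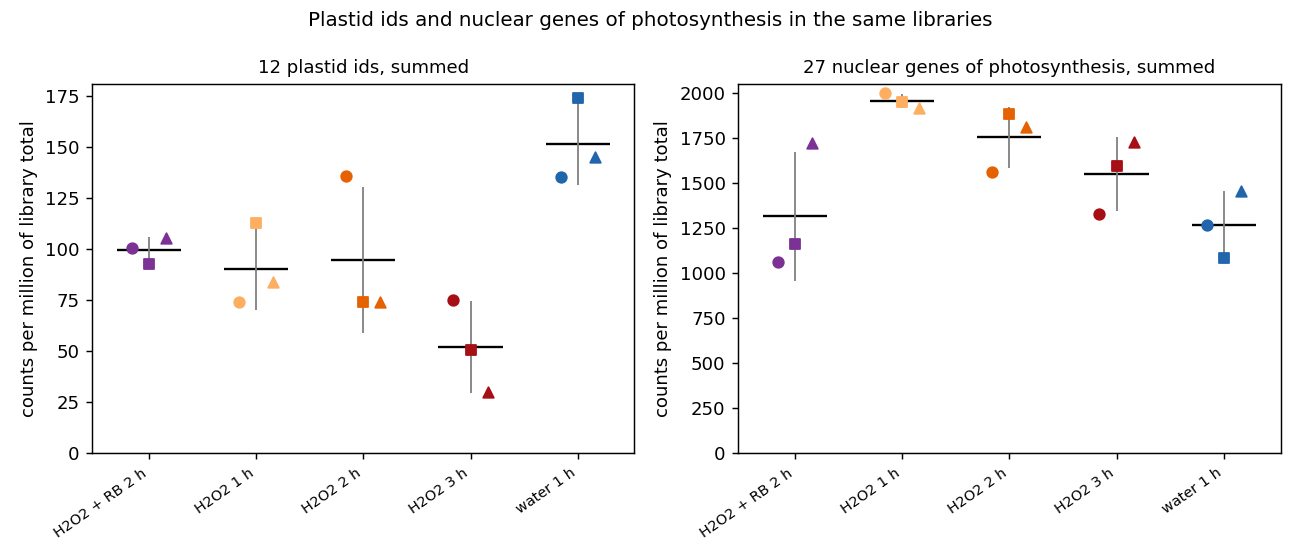
Summed CPM of the 12 plastid ids (left) and of 27 nuclear genes of photosynthesis (right) in each library (circle a, square b, triangle c), with group means (bars) and SD (lines). At 3 h of H2O2 the plastid ids sit between 30.2 and 75.2 CPM, below water at 136 to 174 CPM, while the nuclear genes sit between 1329 and 1731 CPM at 3 h and between 1082 and 1458 CPM in water.

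At 3 h of H2O2 the summed root genes were, like the plastid ids, below water, while summed ribosomal RNA of the nucleus was above it. Of 7 root genes tested, 4 fell with RB, 3 at 1 h, 4 at 2 h and 4 at 3 h, against 9.62%, 3.04%, 4.73% and 14.4% of all genes tested, and 0 rose by edgeR or DESeq2. Log2 fold changes were positive for 3 of the 7 with RB, 1 at 1 h, 2 at 2 h and 2 at 3 h. The highest were 0.88, 1.29, 1.29 and 0.13, in the same order. Among those that fell was PRP3, a root hair cell wall protein gene, at log2 -5.09 ± 0.63 at 3 h (edgeR adjusted p = 7.33e-06). The endodermis gene CASP1 was at 290 ± 32.4 CPM at 3 h and 343 ± 54.8 CPM in water (log2 0.06 ± 0.24, adjusted p = 0.873). Of 3 nuclear ribosomal RNA ids, 2 rose at 3 h, against 16.2% of all genes tested. By edgeR 0 of the 3 were called with RB, at 1 h or at 2 h, against 21.2%, 9.59% and 13.9% of all genes. The sum of the 3 was 86.5, 119 and 83.3 CPM at 3 h, against 29.2, 26.6 and 64.8 CPM in water. The part of either in the plastid values was not tested.

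Nuclear genes for the respiratory chain and ATP synthase encode partners of the mitochondrion-encoded subunits. Of 23 tested, 4 rose with RB, 0 at 1 h, 4 at 2 h and 7 at 3 h, against 11.6%, 6.55%, 9.21% and 16.2% of all genes tested, and 1 fell, at 3 h, against 14.4%. At 1 h, 5 of the 23 had an unadjusted p under 0.05, DESeq2 called 0, and log2 depth as a term gave 1. That term gave 7 higher at 2 h, and 7 higher and 3 lower at 3 h. At 3 h the log2 fold changes of the 23 ran between -2.01 and 5.49, with a median of 0.34, and 8 were negative. Their summed level was 5229 ± 393 CPM at 3 h and 4870 ± 1032 CPM in water (SD, n = 3 each). In this sum every treated group overlapped water. The risers named next are examples and do not include the largest rise. The cytochrome c gene CYTC-2 had 141 ± 29.3 CPM at 3 h and 41.0 ± 18.6 CPM in water (SD, n = 3 each, log2 2.07 ± 0.32, adjusted p = 9.1e-05). CYTC-1 rose by 1.19 ± 0.21 (adjusted p = 0.000343) and FRO1, a subunit gene of complex I, by 1.28 ± 0.29 (adjusted p = 0.00249). The gene that fell was ATP16, an ATP synthase subunit gene (log2 -2.01 ± 0.47, adjusted p = 0.00325). Of 12 nuclear genes for organelle RNA polymerases, sigma factors and ribonucleases 9 are listed and 3 were tested, and none of these 3 passed in any of the 6 comparisons. They were the plastid sigma factor genes SIG2 and SIG3 and the mitochondrial polynucleotide phosphorylase gene mtPNPase, which takes part in RNA degradation. At 3 h over water their log2 fold changes were -0.33 ± 0.33, -0.64 ± 0.49 and 0.20 ± 0.80 (adjusted p = 0.477, 0.343 and 0.878). The summed level of the 9 listed, given with no test, was 23.3, 20.5 and 25.7 CPM with RB, 34.9, 40.1 and 36.3 CPM at 1 h of H2O2, 28.9, 22.9 and 23.5 CPM at 2 h, 29.9, 17.9 and 16.3 CPM at 3 h, and 33.2, 34.9 and 31.2 CPM in water. All RB, 2 h and 3 h libraries lay below every water library, and those of 1 h lay above, the closest pair (1 h a and water b) differing by under 1 CPM.

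By Pearson correlation of log2 CPM, here on the TMM scale, over the 15 libraries, the nuclear genes most like the mitochondrial sum were CCD1 (0.94), AT3G06410 (0.94), AT3G50685 (0.93), VPS41 (0.93) and AT3G13690 (0.92). Those most like the plastid sum were GRF1 (0.91), MYB92 (0.91), SLD1 (0.91), GRIK1 (0.90) and AT5G27650 (0.90). They were picked as the highest of all genes tested and share library depth and the group structure with the sums, so the values are a description.

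Some counts of organelle ids can be split with nuclear copies, since the nuclear genome of this species carries inserted mitochondrial sequence. The reference annotation gives 46 nuclear ids whose note names a mitochondrial id as the best match. Of these 3 are listed in the count table, with at most 15 counts in a library, and none of the 3 notes names a member. For ATMG00180, ATMG00900 and ATMG01090 such a nuclear id exists and is not listed, so the values of these 3 are uncertain. The notes cover matches of proteins only. Nuclear copies of the other members, ATMG00020 and ATMG01390 among them, could therefore have been missed.

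The authors' deposited table gave the same direction for the named calls. It calls 4 mitochondrial ids for RB against water (ATMG00670, ATMG01020, ATMG01120 and ATMG01390), and ATMG00670 at 1 h and 2 h. At 3 h it calls no member. In the authors' deposited table ATMG00670 stands at -2.15 (water over H2O2 3 h, adjusted p = 0.364), ATCG00740 at 1.44 (adjusted p = 0.416) and ATCG00470 at 3.67 (adjusted p = 0.456). With the sign turned these sizes are close to those above, and at 3 h the deposited adjusted p-values are larger.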

How the data were processed

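Roots of 15 samples in 5 groups of 3 were measured by MARS-seq, a 3′ tag method for poly(A) RNA with molecular identifiers. STAR 2.4.2a, HTSeq, DESeq2, cutadapt and bcl2fastq appear, with no role or order, in the submitters' processing notes. The genome build, the annotation and the use of the identifiers were not stated there, so intervals cover counting error of the deposited counts only. The deposited table holds raw counts per gene, which were used, and 30 other per-sample columns (normalized and log-transformed values), which were not. The authors' deposited log2 fold changes, p-values and adjusted p-values, made by the authors with water or the other group on top, were compared with the recomputed ones only. Every listed gene reached at least 6 counts in some library, so the table is a filtered list.

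Groups came from the labels. Counts were fitted in R 4.3.3 with edgeR 4.0.16: filterByExpr by group (minimum count 10, minimum total 15), TMM scaling (factors 0.784 to 1.20), and a robust quasi-likelihood model with a term per group over all 15 libraries (10 residual degrees of freedom). CPM values in the text are counts per 1000000 of the raw library total. Fold changes, and the log2 CPM behind the most alike nuclear genes, are on the TMM scale. An SE is the log2 fold change over the root of F. DESeq2 1.42.0, other scalings, no filter, thinning, a replicate block, log2 depth as a term and leaving out each library were alternatives; the depth term and the mitochondrial share without the 2 most abundant members were chosen after seeing the data. The fit was tested on simulated data. The relations with depth used 100000 permutations.

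The members and the gene lists were chosen with earlier results of these data known. Named are members called in any comparison and the 10 of each genome with the highest mean share. Classes of members by gene symbol, which had been planned, were not formed, because the reference (RefSeq, TAIR10.1) pairs none of the 35 identifiers with a symbol, against 14497 of 14497 nuclear ones. Sums over members get no p-value. The labels do not say what the replicate letters mark. The p-values measure the spread between biological replicates of pooled seedlings as labelled.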

Additional observations from a re-analysis of the deposited data

How the results depend on the processing

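Under the alternatives, 2601 log2 fold changes of named members stayed on their side of the threshold, 35 lost a call and 23 gained one. Of the 227 values of called results 0 changed sign, and of the 2432 values of results not called 178 did. Counts of members called moved as follows. The depth term gave 1 plastid call at 2 h, and 4 mitochondrial calls at 3 h and 2 at 3 h over 1 h. Without a filter on low counts these last were 4 and 2, and DESeq2 gave 1 at 3 h over 1 h. Thinning left 1 plastid call at 3 h, and 0 at 3 h over 1 h, where DESeq2 size factors and the replicate block also gave 0. Leaving out single libraries gave 0 to 1 mitochondrial calls at 1 h, at 2 h and for RB over H2O2, 1 to 4 at 3 h, 1 to 4 for RB over water and 0 to 2 at 3 h over 1 h, and 0 to 1 plastid calls at 2 h and at 3 h over 1 h. The cause of these moves was not tested. The replicate letters were not taken as pairs. Residuals of 30 same-letter pairs correlated at -0.44 to 0.64 (median -0.05), and those of 60 other-letter pairs at -0.60 to 0.64 (median 0.02). In 7 of 15 libraries the nearest library had the same letter. The block also called ATMG01380 for RB over water (adjusted p = 0.0424) and moved no other count of calls by over 1.5 times.

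By construction, differences of summed shares shrink when abundant members are left out. Without ATMG00020 the mitochondrial difference was -2614 CPM for RB over H2O2 and -1679 CPM for 3 h over 1 h. Without ATMG00020 and ATMG01390 these were 24.3 and -33.1 CPM, and RB over water was 44.5 CPM. Without ATCG00740 the plastid difference from water was -25.7 CPM with RB, and -23.5, -23.8 and -47.3 CPM at 1 h, 2 h and 3 h. Upper-quartile scaling moved the median of all genes by -0.16 at 3 h over water and -0.12 at 3 h over 1 h, and the share of calls that were higher to 41.0% and 38.1%, against 53.0% and 49.9% with TMM. Leaving out ribosomal RNA members was not run, because no source used here says which members these are. Low counts limit most members: 12 of 35 could not be tested.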
